A study of Homo sapiens and Mus musculus with 27 samples.

Results

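MDA-MB-231 cells, a triple-negative human breast cancer line, were treated with bortezomib plus AMD3100 or with bortezomib plus a second agent that the labels call TM. The comparison described here sets the 3 libraries of the AMD3100 arm (10 nM bortezomib, 10 µM AMD3100) against the 3 libraries of the TM arm (10 nM bortezomib, 10 µM TM), which are 6 of the 27 libraries of the series and were taken by their labels. Vehicle-treated MDA-MB-231 cells (3 libraries, no bortezomib) served both arms as a shared baseline. All 6 treated libraries therefore carry bortezomib, and no group of the series was given bortezomib alone. What each partner added to bortezomib thus cannot be read from these libraries. The labels number the libraries of each group as biological replicates and do not say whether they came from separate experiments. The p-values measure the spread between these libraries.

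Bortezomib blocks the chymotrypsin-like site of the 20S proteasome. Cells with a blocked proteasome are known to induce heat-shock chaperones through HSF1, stress genes through ATF4, antioxidant genes through NRF2, and proteasome subunits through NRF1 (NFE2L1), a recovery known as the bounce-back response. AMD3100 (plerixafor) is an antagonist of the chemokine receptor CXCR4. The labels do not spell out TM.

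The 6 treated libraries held 40389469 to 50283398 counts and detected 22595 to 23228 genes with at least 1 count. Mitochondrial transcripts made up 2.67% to 3.25% of their counts. The line was recognisable in every library. The mesenchymal filament gene VIM stood at 881 to 982 CPM (normalised counts scaled to library size), while the progesterone receptor gene PGR had no count in any of the 9 MDA-MB-231 libraries and ESR1 at most 8 counts. ERBB2, the third receptor gene of that list, stood at 43.9 to 55.8 CPM in the AMD3100 arm and 42.1 to 46.8 CPM in the TM arm. The 7 epithelial markers summed to 15.9 to 20.6 CPM in the AMD3100 arm, 17.2 to 18.3 CPM in the TM arm and 13.1 to 15.5 CPM in vehicle. Most of this was CLDN4, a tight junction gene, while KRT5 and GRHL2 were at 0 in all 9 libraries. Markers of other cell types stayed near 0: the 3 T cell markers summed to at most 0.264 CPM in the AMD3100 arm and 0.0537 CPM in the TM arm, and the 3 myeloid markers to 1.47 to 2.00 CPM and 1.38 to 1.87 CPM.

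Replicate 3 of each arm was examined first, because the arms can only be read as groups if their libraries lie together. On the 500 most variable genes, the library labelled AMD3100 replicate 3 lay at a mean root mean square log2 distance of 1.75 from its own arm and 1.72 from the TM arm. The library labelled TM replicate 3 lay at 1.88 from its own arm and 1.80 from the AMD3100 arm. Both were thus nearer the other arm, by 0.034 and 0.071, and these variable genes include many low counts. Over all 16498 genes tested both were also nearer the other arm. There AMD3100 replicate 3 lay at 0.667 from its own arm and 0.659 from the TM arm. TM replicate 3 lay at 0.740 from its own arm and 0.657 from the AMD3100 arm. Among the 7961 genes with a mean above 3 on the log2 CPM scale, where counting noise is smaller, the 2 libraries parted. TM replicate 3 lay at 0.467 from the other TM libraries and at 0.306 from the AMD3100 arm, and its nearest neighbours were AMD3100 replicate 1 (0.215) and AMD3100 replicate 2 (0.241). AMD3100 replicate 3 lay at 0.344 from its own arm and 0.355 from the TM arm, although the 2 single libraries closest to it were TM replicate 1 (0.288) and TM replicate 2 (0.314). In the first principal component of these genes, which held 67.2% of the variance, AMD3100 replicates 1 and 2 (0.380 and 0.334) sat with TM replicate 3 (0.481), and AMD3100 replicate 3 (-0.263) sat with TM replicates 1 and 2 (-0.534 and -0.398). The second component, with 20.2% of the variance, put all 3 AMD3100 libraries (0.142, 0.261 and 0.677) above all 3 TM libraries (-0.153, -0.457 and -0.470).

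**Figure D1:**
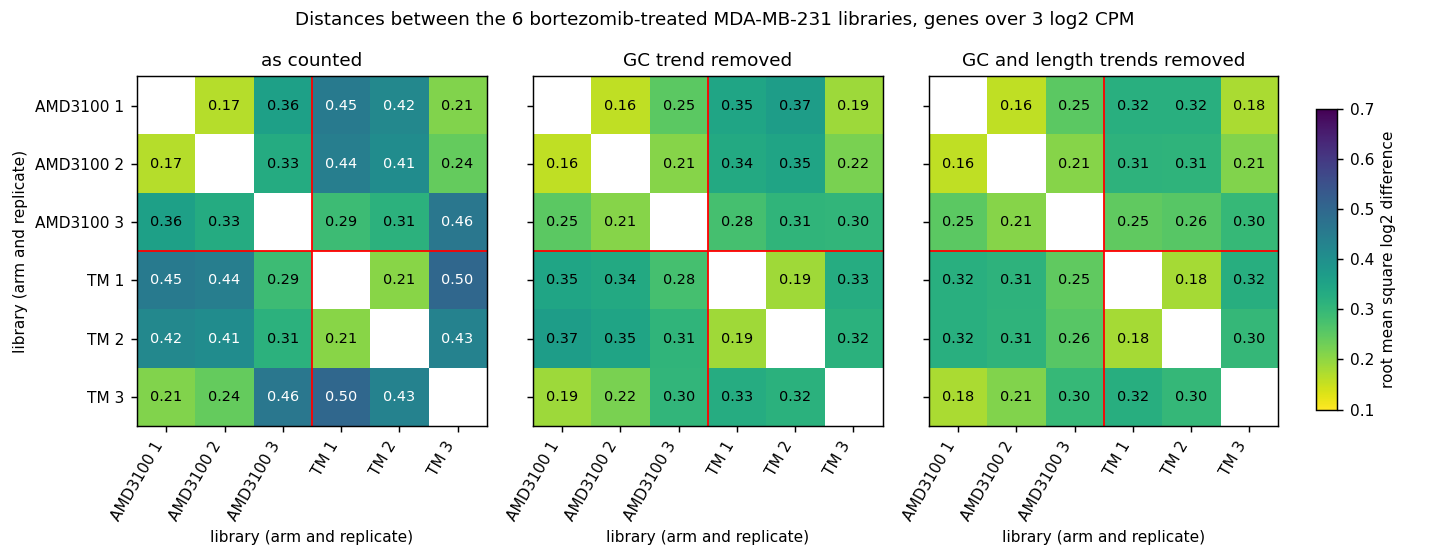
Each square gives the root mean square log2 difference between 2 of the 6 treated MDA-MB-231 libraries over genes above 3 log2 CPM, as counted (left), with each library's GC trend removed (middle) and with GC and length trends removed (right), and the red lines divide the AMD3100 arm from the TM arm. TM replicate 3 is closest to AMD3100 replicate 1 in all 3 panels, at 0.215, 0.188 and 0.175, while AMD3100 replicate 3 is closest to TM replicate 1 only in the left panel.

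Base composition moved with this arrangement, while transcript length, fitted together with it, set the arms apart as labelled. Per 10 points of GC content the slopes were -0.10, -0.09 and 0.18 log2 in the AMD3100 libraries. In the TM libraries they were 0.17, 0.07 and -0.22 log2. Per doubling of length they were 0.070, 0.063 and 0.070 log2 in the AMD3100 libraries and -0.079, -0.121 and -0.002 log2 in the TM libraries. The loading of genes on the first component correlated with transcript GC content at -0.740 (Spearman's rho across genes, which are not independent replicates). In the tenth of genes with the lowest GC content (31.3% to 39.2%), the median deviation from the mean of the 6 libraries was 0.18, 0.19 and -0.27 log2 in the AMD3100 libraries and -0.25, -0.16 and 0.35 log2 in the TM libraries. Replicate 3 of each arm thus had the opposite sign to the other libraries of its arm. In the tenth of genes with the longest transcripts, not adjusted for GC content, the deviations were 0.15, 0.17 and 0.01 log2 in the AMD3100 libraries. In the TM libraries they were -0.19, -0.26 and 0.08 log2. The difference between the arms correlated with transcript length at a Spearman's rho of 0.547 across 7933 genes, given as a description. With the GC trend of each library removed, AMD3100 replicate 3 lay nearer its own arm (0.229, against 0.296 from the TM arm), and TM replicate 3 remained nearer the AMD3100 arm (0.323 from its own arm, against 0.238). Removing the length trend as well gave 0.230 against 0.267 for AMD3100 replicate 3, and 0.312 against 0.229 for TM replicate 3. Whether these trends come from the RNA, the libraries or the treatments was not tested, and every gene difference below is given for the libraries as labelled.

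**Figure D2:**
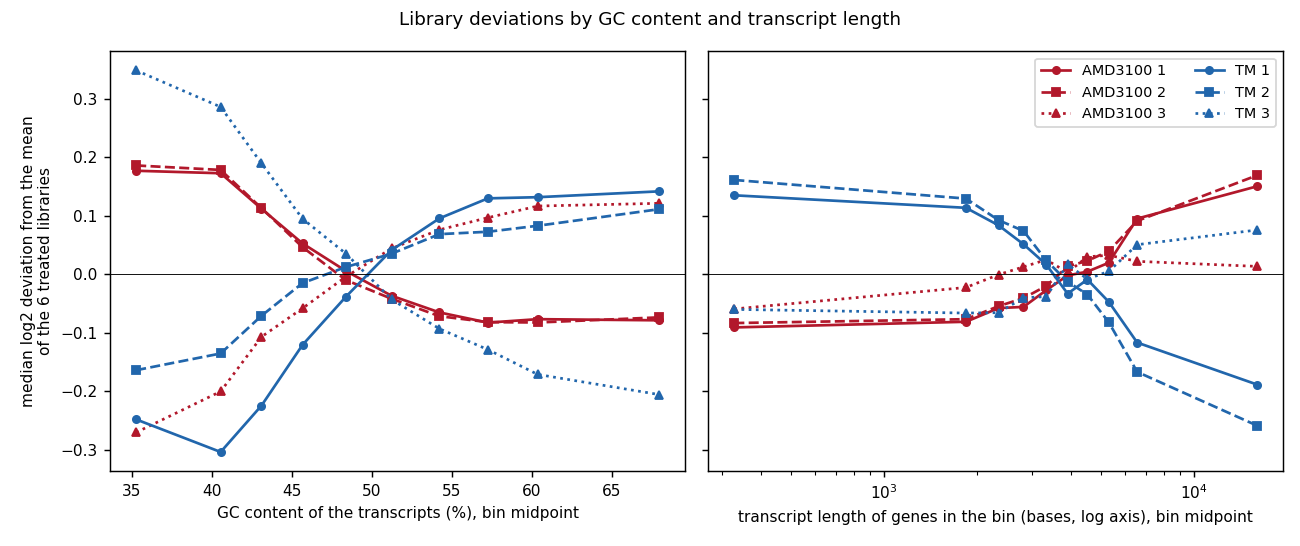
The median log2 deviation of each treated library from the mean of all 6 is plotted for 10 bins of genes ordered by transcript GC content (left) or transcript length (right, log axis), with the AMD3100 arm in red and the TM arm in blue. In the lowest GC bin TM replicate 3 stands at 0.35 with AMD3100 replicates 1 and 2 (0.18 and 0.19), and AMD3100 replicate 3 at -0.27 stands with TM replicates 1 and 2 (-0.25 and -0.16).

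With all 6 libraries, no gene passed an adjusted p of 0.05 between the AMD3100 arm and the TM arm (edgeR's quasi-likelihood test with Benjamini-Hochberg adjustment over 16498 genes, percent called 0), and the smallest adjusted p was 0.234. Unadjusted p was under 0.05 for 1464 genes (8.87%). DESeq2 called 52 genes, 39 higher and 13 lower in the AMD3100 arm, and limma-voom called 0. With the GC trend alone removed, 130 of 15372 genes (0.846%) were called, 93 higher (0.605%) and 37 lower (0.241%). The 3 libraries of one arm lay wholly above those of the other for 1130 genes higher in the AMD3100 arm (6.85%) and 1083 genes lower in it (6.56%). In bulk RNA, a change in the share of cells and a change in RNA per cell cannot be told apart. The precision of these values limits how large an undetected difference can be. The median standard error was 0.23 log2, the median absolute difference was 0.20 log2, and the 95% confidence interval of the difference lay within 2-fold in either direction for 10633 of 16497 genes (64.5%). Among genes above 3 log2 CPM that share was 7550 of 7961 (94.8%).

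Among genes of at least 5 CPM, the 6 with the smallest p that were higher in the AMD3100 arm, with no overlap between the arms, were WNK1, SPEN, ZFP36L2, ZFP36L1, FAT1 and HEG1. WNK1, a kinase that controls ion transport and cell volume (ENSG00000060237, chromosome 12, 752593 to 911452, GRCh38), stood at 51.2, 56.7 and 46.6 CPM in the AMD3100 arm and 30.8, 23.5 and 30.1 CPM in the TM arm. The log2 difference was 0.87 (SE 0.13, edgeR adjusted p = 0.234). Vehicle cells had 53.3 to 56.2 CPM. Against vehicle the AMD3100 arm differed by -0.09 log2 (adjusted p = 0.58), and WNK1 fell by 0.97 log2 in the TM arm (adjusted p = 7.8e-05). SPEN, a transcriptional corepressor (chromosome 1, 15847864 to 15940460), stood at 20.4, 24.1 and 19.03 CPM in the AMD3100 arm and 10.3, 8.91 and 12.3 CPM in the TM arm, a difference of 1.01 log2 (SE 0.16, adjusted p = 0.234). Both arms fell below vehicle in SPEN, by 0.96 and 1.97 log2. ZFP36L2, which promotes decay of mRNAs with AU-rich elements, stood at 20.8, 23.9 and 20.5 CPM in the AMD3100 arm and 12.9, 10.7 and 11.96 CPM in the TM arm (log2 0.87, SE 0.14, adjusted p = 0.234). Its paralog ZFP36L1 differed by 0.63 log2 (SE 0.10, adjusted p = 0.234), the protocadherin gene FAT1 by 0.90 and the transmembrane receptor gene HEG1 by 0.66, the last 2 at an adjusted p of 0.344. The lack of overlap was part of the rule that chose these 6 genes. DESeq2, run on the same libraries, had all 6 among its 52 called genes.

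The 6 genes with the smallest p in the other direction were PFDN4, MT1E, RPS27, RPS29, COPS2 and CLEC2B, all at an adjusted p of 0.344. PFDN4, a subunit of the prefoldin chaperone (chromosome 20, 54207847 to 54228052), stood at 70.9, 67.1 and 63.9 CPM in the AMD3100 arm and 161, 146 and 92.3 CPM in the TM arm (log2 -0.98, SE 0.19). TM replicate 3 was the TM library nearest the AMD3100 arm, and vehicle cells had 22.3 to 30.7 CPM. PFDN4 rose against vehicle in both arms, by 1.30 log2 with AMD3100 and 2.28 log2 with TM. MT1E, a metallothionein that binds zinc and copper (chromosome 16, 56625475 to 56627112), stood at 26.9, 24.3 and 24.4 CPM in the AMD3100 arm and 36.8, 37.1 and 33.4 CPM in the TM arm (log2 -0.50, SE 0.10). It fell in both arms, by 2.42 log2 with AMD3100 and 1.91 log2 with TM, against 131 to 138 CPM in vehicle. COPS2, a subunit of the COP9 signalosome, stood at 84.6, 67.5 and 55.2 CPM in the AMD3100 arm and 126, 99.3 and 126 CPM in the TM arm (log2 -0.76, SE 0.16). CLEC2B, a C-type lectin gene, differed by -0.81 (SE 0.17), and the small ribosomal subunit genes RPS27 and RPS29 by -0.64 and -0.59. MT1E and the ribosomal protein genes have near-identical relatives or processed copies among which reads can be divided, so their levels are less certain. DESeq2, on the same libraries, called these 6 genes too. For 11 of the 12 genes the TM arm lay farther from vehicle than the AMD3100 arm, MT1E being the exception. Over the 6856 genes called in both arms against vehicle, that held for 4458 (65.0%), with median absolute changes of 1.03 log2 in the AMD3100 arm and 1.12 log2 in the TM arm. The 12 genes were chosen for a difference between the arms, and WNK1 is not among the 6856. These shares are thus of unlike sets. The vehicle libraries also had a length trend, with slopes of 0.188 to 0.195 log2 per doubling of transcript length. The slopes were 0.063 to 0.070 in the AMD3100 arm and -0.121 to -0.002 in the TM arm, farther from vehicle. How far this trend enters the distances from vehicle was not tested.

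**Figure D3:**
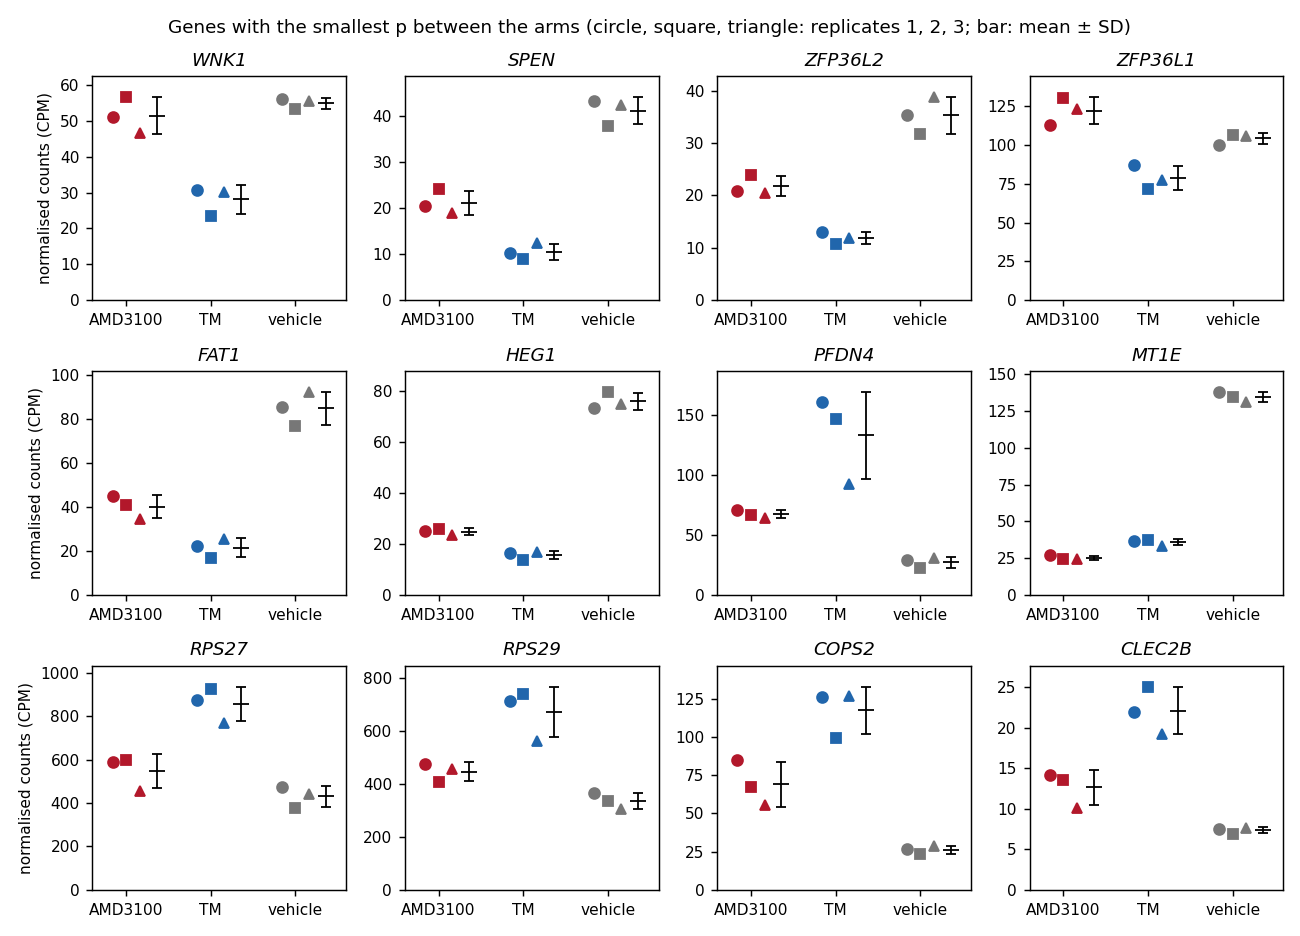
Normalised counts (CPM) of the 12 genes are plotted for each library, with the AMD3100 arm in red, the TM arm in blue and vehicle in grey, the replicates as circle, square and triangle, and the mean ± SD (n = 3) as a black bar. The genes were chosen so that the arms do not overlap. For PFDN4 the TM triangle (92.3 CPM) lies nearest the AMD3100 libraries (63.9 to 70.9 CPM).

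The length of the longest annotated transcript, which need not be the one expressed, differed between these 2 sets. WNK1, SPEN, FAT1 and HEG1 have transcripts of 9156 to 14786 bases, while ZFP36L2 (3696 bases) and ZFP36L1 (3190 bases) lie near the median of all genes. Among the lower genes, RPS29 (7062 bases) and COPS2 (6628 bases) lie above it and the other 4 below. Median transcript length was 10480 bases for the higher genes, 1581 bases for the lower genes and 3222 bases for all genes tested. With GC and length trends removed, no gene was called (adjusted p = 0.060 for ZFP36L1 and 0.074 for WNK1, by the same edgeR test). All 12, chosen for a small p in the same libraries, kept an unadjusted p under 0.05. In that fit 2315 of 15372 genes had an unadjusted p under 0.05. The difference in WNK1 was then 0.59 log2 and that in PFDN4 was -0.82 log2.

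Among gene lists, the medians of the cytosolic ribosomal proteins, cytochrome c oxidase, and complex I and ATP synthase were negative, and that of collagens and matrix was positive. All were small, and no member of any list passed the test. The aminoacyl-tRNA synthetases, which also serve translation, had a median of 0.07 log2, with 11 of 18 positive. Of 34 cytosolic ribosomal protein genes, 1 had a positive difference, and the list had a median of -0.23 log2 against 0.01 for all genes. The arms did not overlap for 14 of them, all lower in the AMD3100 arm, where 6.56% of all genes were lower without overlap. RPLP0, a stalk protein, stood at 7344, 7154 and 7529 CPM in the AMD3100 arm and 9411, 9770 and 7887 CPM in the TM arm (log2 -0.30, SE 0.10, adjusted p = 0.475). All 11 cytochrome c oxidase genes had a negative difference (median -0.18, lowest -0.37, highest -0.10), without overlap for 4. COX7C, a small subunit, stood at 137, 126 and 105 CPM in the AMD3100 arm and 148, 157 and 170 CPM in the TM arm (log2 -0.37, SE 0.11, adjusted p = 0.43). The median was -0.19 for 18 genes of complex I and ATP synthase, without overlap for 5. The longest annotated transcripts of these lists are short (median 1846, 1098 and 2139 bases). The lengths of the forms expressed were not tested. With GC and length trends removed the 3 medians were -0.18, -0.21 and -0.20.

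Of 19 tested genes for collagens and matrix, 8 lay higher in the AMD3100 arm without overlap and 0 lay lower (6.85% and 6.56% of all genes), with a median of 0.19 log2. FN1, which encodes fibronectin, stood at 50.6, 53.01 and 64.9 CPM in the AMD3100 arm and 41.9, 32.4 and 39.4 CPM in the TM arm (log2 0.57, SE 0.13, adjusted p = 0.36). THBS1, the thrombospondin gene, stood at 102, 103 and 93.8 CPM in the AMD3100 arm and 65.2, 51.7 and 78.0 CPM in the TM arm (log2 0.62, SE 0.15, adjusted p = 0.36). COL12A1 had the largest value of the list, 0.96 log2 (SE 0.22, adjusted p = 0.34). The YAP and TEAD targets had a median of 0.14 with 4 of 12 higher without overlap, and the EMT factors and markers 0.10 with 4 of 11, beside the same 6.85% of all genes. The matrix genes had a median transcript length of 4305 bases, and their median was 0.05 with GC and length trends removed.

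The interferon response list had a median of -0.13 log2, with 7 of 19 tested genes positive and values from -1.50 to 0.64. In the AMD3100 arm 5 of the 19 lay lower without overlap, against 6.56% of all genes. ISG15, a ubiquitin-like modifier induced by interferon, stood at 103, 96.0 and 98.5 CPM in the AMD3100 arm and 150, 148 and 110 CPM in the TM arm (log2 -0.45, SE 0.12, adjusted p = 0.39). IFIT1, a sensor of foreign RNA, stood at 53.7, 61.6 and 52.3 CPM in the AMD3100 arm and 73.7, 88.4 and 72.8 CPM in the TM arm (log2 -0.49, SE 0.19, adjusted p = 0.51). Both genes separated the arms in all 6 libraries, but neither passed the test. The 22 genes of the G2 and M phase list had a median of 0.11 log2, with 16 positive and values from -0.38 to 0.90. Of them, 1 lay higher without overlap, a share near the 6.85% of all genes. It was MKI67, the proliferation marker Ki-67, at 50.1, 50.5 and 37.4 CPM in the AMD3100 arm and 23.5, 16.2 and 34.5 CPM in the TM arm (log2 0.90, SE 0.23, adjusted p = 0.36).

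**Figure D4:**
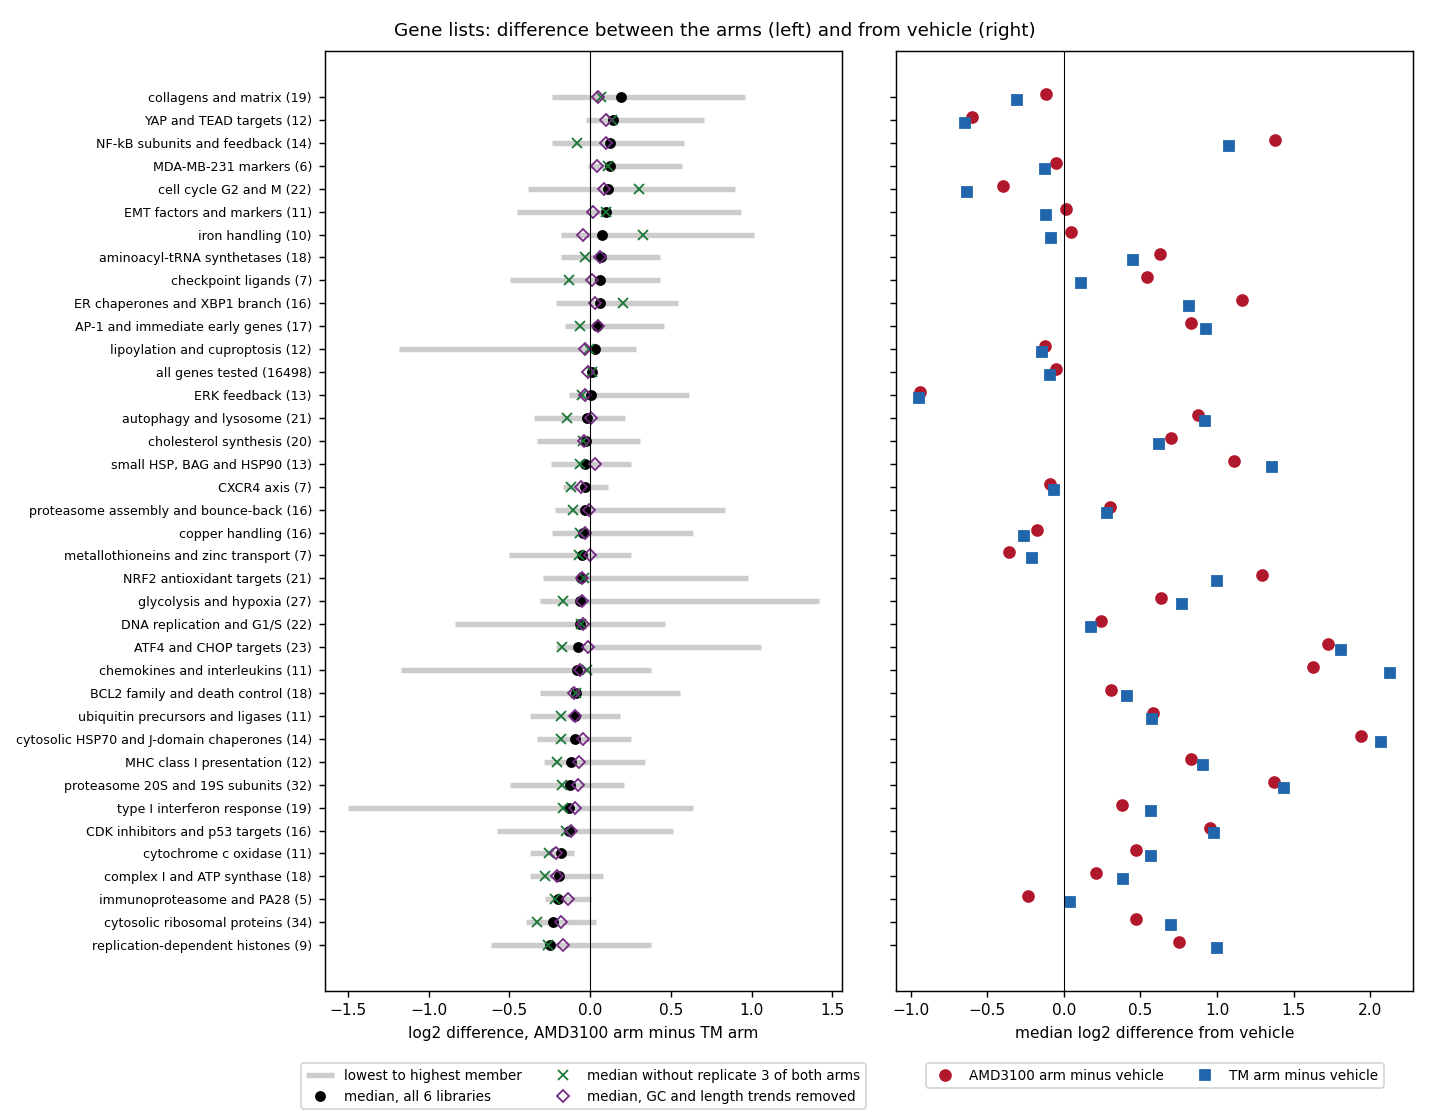
For each gene list with at least 5 tested members (number in brackets) the left panel gives the log2 difference of the AMD3100 arm minus the TM arm, as the median with all libraries, without replicate 3 of both arms, and with GC and length trends removed, over a grey bar from the lowest to the highest member. The right panel gives the median log2 difference of each arm from the shared vehicle libraries, where the 2 arms lie side by side, for example at 1.37 and 1.44 for the proteasome subunits.

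The response of both arms against vehicle was large. Against the vehicle libraries that the arms share, 7675 genes were called in the AMD3100 arm (3678 higher, 22.3%, and 3997 lower, 24.2%) and 8527 in the TM arm (3981 higher, 24.1%, and 4546 lower, 27.6%). Of these, 6856 were called in the same direction in both arms and 0 in opposite directions, and for 5543 of the 6856 (80.8%) the interval of the difference between the arms lay within 2-fold. Of 32 proteasome subunit genes, 30 rose in each arm, with medians of 1.37 and 1.44 log2. PSMB5, the subunit that bortezomib binds, stood at 593, 577 and 610 CPM in the AMD3100 arm, 734, 706 and 556 CPM in the TM arm and 249 to 293 CPM in vehicle. Its difference between the arms was -0.17 log2 (95% interval -0.41 to 0.08, adjusted p = 0.68), and TM replicate 3 fell below all 3 AMD3100 libraries while the other TM libraries lay above them. The autophagy receptor gene SQSTM1 rose by 3.30 log2 with AMD3100 and 3.48 log2 with TM.

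Among heat-shock chaperones of the HSP70 and J-domain families, 13 of 14 rose in the AMD3100 arm and 12 of 14 in the TM arm. Their medians were 1.94 and 2.07 log2, and 22.3% and 24.1% of all genes rose. HSPA6, a strictly inducible HSP70, stood at 139, 134 and 143 CPM in the AMD3100 arm, 178, 180 and 150 CPM in the TM arm and 1.01 to 2.37 CPM in vehicle (difference between the arms -0.29 log2, 95% interval -0.69 to 0.12, adjusted p = 0.665). HSPA1A stood at 1867, 1667 and 2115 CPM in the AMD3100 arm and 2432, 1662 and 1925 CPM in the TM arm, against 23.01 to 32.5 CPM in vehicle (interval -0.44 to 0.25). HSPA1A and HSPA1B are nearly identical, so reads can be divided between them. The promoters of HSPA6 and HSPA1A are shown because these genes rose in both arms, by 6.34 and 6.12 log2 with AMD3100 and by 6.63 and 6.21 log2 with TM, and had no called difference between the arms. They are the 250 bases before the RefSeq start (GRCh38.p14), with matches to the core of the heat shock element, GAANNTTC or TTCNNGAA, in capitals. Both motifs read the same on either strand, and HSPA6 holds 2 matches that overlap. Of 27305 promoters of this length 11.7% hold a match, as do 6 of the 14 promoters of the HSP70 and J-domain list. The promoters of HSPA8 and DNAJB1, not shown, hold 4 and 0 matches. A match describes letters and not binding.
HSPA6, chr1:161524290-161524539, plus strand: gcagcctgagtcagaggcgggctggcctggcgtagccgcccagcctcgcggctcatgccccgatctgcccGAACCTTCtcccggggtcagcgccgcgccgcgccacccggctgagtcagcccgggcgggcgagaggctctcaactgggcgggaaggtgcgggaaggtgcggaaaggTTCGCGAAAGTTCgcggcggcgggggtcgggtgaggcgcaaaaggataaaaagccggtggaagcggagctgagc
HSPA1A, chr6:31815293-31815542, plus strand: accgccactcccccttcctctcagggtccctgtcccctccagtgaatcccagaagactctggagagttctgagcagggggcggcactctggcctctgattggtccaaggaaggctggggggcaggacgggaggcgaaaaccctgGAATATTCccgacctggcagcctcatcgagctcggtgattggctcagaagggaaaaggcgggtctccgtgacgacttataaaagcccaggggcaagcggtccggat

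Other stress branches moved in the same direction in both arms. Of 23 tested ATF4 and CHOP targets, 20 rose in each arm (medians 1.72 and 1.81 log2), beside 22.3% and 24.1% of all genes. ATF3 stood at 138, 137 and 158 CPM in the AMD3100 arm, 177, 175 and 148 CPM in the TM arm and 3.25 to 4.14 CPM in vehicle (difference between the arms -0.20, interval -0.46 to 0.05). DDIT3, which encodes CHOP, differed by 0.08 (interval -0.25 to 0.40). Of 21 NRF2 targets, 16 rose with AMD3100 and 17 with TM, beside the same shares of all genes. HMOX1, heme oxygenase, stood at 58.3, 63.1 and 67.2 CPM in the AMD3100 arm and 71.0, 68.1 and 52.5 CPM in the TM arm (difference -0.02, interval -0.30 to 0.26). Among genes of at least 5 CPM in a group, the largest rises shared by both arms were those of AKR1B10, HSPA6, GABARAPL1, GCNT3 and HKDC1, and the largest falls those of MUC5AC, NOG, SMAD6, ADGRF1 and IGFBP1. GABARAPL1, an autophagosome protein, stood at 325, 341 and 346 CPM in the AMD3100 arm and 394, 414 and 381 CPM in the TM arm, against 3.94 to 4.60 CPM in vehicle (difference -0.23, interval -0.43 to -0.04, adjusted p = 0.505). MUC5AC, a secreted mucin gene, fell to 0.185, 0.250 and 0.504 CPM in the AMD3100 arm and 0.456, 0.376 and 0.379 CPM in the TM arm, against 17.7 to 32.4 CPM in vehicle.

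Transcripts of the receptor that AMD3100 binds were at the limit of detection. CXCR4 had 0 counts in all 3 AMD3100 libraries, 6, 0 and 0 counts in the TM libraries and 0 in vehicle, and its ligand CXCL12 had 0 counts in all 9. A count of 0 allows up to 3 counts, or 0.0708 to 0.0743 CPM of the AMD3100 libraries' totals, for counting error only. The second receptor of CXCL12, ACKR3, had 2 counts in 1 TM library and 0 elsewhere. The 7 tested genes downstream or around the receptor had differences between -0.17 and 0.11 log2. GNAI2, an inhibitory G protein subunit gene, stood at 756, 742 and 802 CPM in the AMD3100 arm and 806, 797 and 748 CPM in the TM arm (difference -0.03, interval -0.24 to 0.18).

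Copper and metal handling genes showed no called difference either. SLC31A1, the copper importer CTR1, stood at 74.4, 75.8 and 74.5 CPM in the AMD3100 arm and 78.9, 79.5 and 77.2 CPM in the TM arm, without overlap but by only -0.07 log2 (interval -0.27 to 0.13, adjusted p = 0.853). ATP7B, a copper exporter, differed by 0.15 log2 (interval -0.41 to 0.71). MT2A, the most abundant metallothionein gene here, stood at 477, 486 and 480 CPM in the AMD3100 arm and 648, 677 and 454 CPM in the TM arm (log2 -0.30, adjusted p = 0.552), with TM replicate 3 below all AMD3100 libraries. MT1X differed by -0.05. The 16 tested copper genes had a median of -0.04 log2 and values from -0.24 to 0.64. Of them, 1 lay higher and 2 lay lower in the AMD3100 arm without overlap, close to the shares of all genes (6.85% and 6.56%). The higher one was LOX, a copper-dependent amine oxidase that cross-links collagen, at 8.99, 9.32 and 6.84 CPM in the AMD3100 arm and 4.40, 5.21 and 6.54 CPM in the TM arm (log2 0.64, SE 0.23, adjusted p = 0.50). CD274, which encodes PD-L1, stood at 15.2, 16.4 and 13.3 CPM in the AMD3100 arm and 9.45, 8.83 and 15.02 CPM in the TM arm (log2 0.43, interval -0.04 to 0.90, adjusted p = 0.589), with TM replicate 3 inside the AMD3100 range. The antigen presentation gene B2M stood at 195, 233 and 175 CPM in the AMD3100 arm and 212, 264 and 258 CPM in the TM arm (log2 -0.28, adjusted p = 0.569).

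The 12 genes that varied most among the 6 libraries, out of those with a mean of at least 5 CPM there and chosen without regard to arm, had AMD3100 replicates 1 and 2 and TM replicate 3 as their 3 highest libraries in 9 of 12 cases. Genes picked for their spread tend to follow the first component of the same libraries, so this count is no separate support for that arrangement. The share of all genes with this order is not given here. CENPF, a kinetochore protein gene, stood at 28.5, 21.9 and 9.62 CPM in the AMD3100 arm and 5.83, 5.10 and 23.3 CPM in the TM arm. TPR, a nuclear pore basket protein gene, stood at 20.1, 14.02 and 5.51 CPM in the AMD3100 arm and 4.97, 2.68 and 14.3 CPM in the TM arm. NIPBL, the cohesin loader gene, stood at 22.6, 16.7 and 6.04 CPM in the AMD3100 arm and 5.74, 5.397 and 18.2 CPM in the TM arm. In each of these, TM replicate 3 was high with AMD3100 replicates 1 and 2, and AMD3100 replicate 3 was lower. The same held for ROCK2, USP34, ARHGAP5, VPS13A, TOPBP1 and CDC42BPA. Among abundant transcripts, HSP90AA1, the inducible HSP90, stood at 4218, 4097 and 2349 CPM in the AMD3100 arm and 1924, 2291 and 5716 CPM in the TM arm. The other 3 of the 12 did not follow it. CD99 and GTPBP6 are pseudoautosomal genes that each have a second feature with the same symbol, and U2AF1 has a near-identical copy on the same chromosome, so reads can be divided between copies. CD99 jumped between 6.57 and 139 CPM within the AMD3100 arm and between 6.20 and 136 CPM within the TM arm. The median GC content of the 10 of these genes with a value was 40.2%, against 48.8% for all genes tested.

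Leaving out single libraries showed which of them the count of 0 rests on. Without TM replicate 3, 183 genes were called (138 higher and 45 lower in the AMD3100 arm), and without any other single library of the 6 the count stayed at 0. Without replicate 3 of both arms, 1614 of 17136 genes (9.42%) were called, 1352 higher (7.89%) and 262 lower (1.53%). Removing the libraries nearest the other arm widens the gap between those that stay, so these calls describe 2 libraries against 2. Of 1349 higher genes that were tested in both fits, AMD3100 replicate 3 lay nearer TM replicates 1 and 2 for 914 (67.8%), and TM replicate 3 did so for 113 (8.38%). Of 260 lower genes these counts were 47 (18.1%) and 41 (15.8%). Their median length was 6058 bases and their median GC content 41.2%, against 1836.5 bases and 55.9% for the 262 lower genes. Among called genes of at least 5 CPM without overlap, the largest rises were CENPF (2.18 log2, adjusted p = 2.9e-05), TPR (2.13), GNPTAB (2.08), USP34 (2.00), CDC42BPA (1.95) and DNAJC13 (1.87). By the same rule, the largest falls were PFDN4 (-1.17, adjusted p = 2.0e-04), FAM174A (-0.99), H2AC20 (-0.93), SPSB2 (-0.82), CLEC2B (-0.78) and RPL9 (-0.75). With GC and length trends removed, leaving out both replicates 3 gave 1920 of 15843 genes (12.1%), 824 higher (5.2%) and 1096 lower genes (6.92%), so the balance of directions turned. Of 34 ribosomal protein genes 16 were called lower there as counted, and with the trends removed 16 were called lower and 1 higher.

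HCC1937, another triple-negative line, was treated in the same series with 10 µM AMD3100 or 10 µM TM without bortezomib, 3 libraries each, so cell line and bortezomib cannot be told apart. There, 1742 of 21590 genes (8.07%) were called between AMD3100 and TM, 878 higher (4.07%) and 864 lower (4%) with AMD3100. Of the 1642 of these that were tested in MDA-MB-231, 792 (48.2%) had the same sign between the bortezomib arms. The difference between partners itself differed between the lines for 625 genes (2.89%), 282 with a higher (1.31%) and 343 with a lower value (1.59%) in MDA-MB-231 (edgeR, interaction term). CDKN1A, the cell cycle inhibitor p21, stood at 270, 264 and 300 CPM in the AMD3100 arm and 354, 338 and 280 CPM in the TM arm of MDA-MB-231 (log2 -0.22). In HCC1937 it stood at 28.3, 44.0 and 46.8 CPM with AMD3100 and 354, 386 and 362 CPM with TM (log2 -3.21, interaction 2.94, SE 0.23, adjusted p = 5.2e-06). GDF15, a stress-induced cytokine gene, differed by -0.21 log2 between the MDA-MB-231 arms and by -3.33 log2 in HCC1937 (interaction 3.06, adjusted p = 0.00066). SPRY4, a feedback inhibitor of receptor tyrosine kinase signalling, stood at 51.0, 59.0 and 62.1 CPM in the AMD3100 arm and 43.6, 41.6 and 43.2 CPM in the TM arm of MDA-MB-231, and at 0.885, 1.51 and 1.30 CPM with AMD3100 and 5.49, 6.58 and 6.64 CPM with TM in HCC1937. The observed order of the agents was thus opposite in the 2 lines for SPRY4, but its difference in MDA-MB-231 was not called. Its interaction (2.71, adjusted p = 5.5e-05) tests whether the 2 differences differ, not whether their signs are opposite. TXNIP, a thioredoxin-binding protein gene, stood at 108, 104 and 100 CPM in the AMD3100 arm and 108, 116 and 131 CPM in the TM arm of MDA-MB-231. In HCC1937 it stood at 12.4, 16.4 and 17.2 CPM with AMD3100 and 3.71, 2.95 and 3.88 CPM with TM (interaction -2.35, adjusted p = 1.0e-05). HCC1937 AMD3100 replicate 1 stood apart, with 19.9% mitochondrial counts and 20639 genes detected. Without it 1866 genes were called, and the interactions of CDKN1A, GDF15, SPRY4 and TXNIP were 2.75, 2.68, 2.52 and -2.48. Without HCC1937 TM replicate 1, 2 or 3 the count was 308, 268 or 298. Without HCC1937 AMD3100 replicate 2 or 3 it was 615 or 658. Without AMD3100 replicate 1, 2 or 3 of MDA-MB-231 it was 363, 318 or 382. Without TM replicate 1, 2 or 3 of MDA-MB-231 it was 460, 313 or 831.

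**Figure D5:**
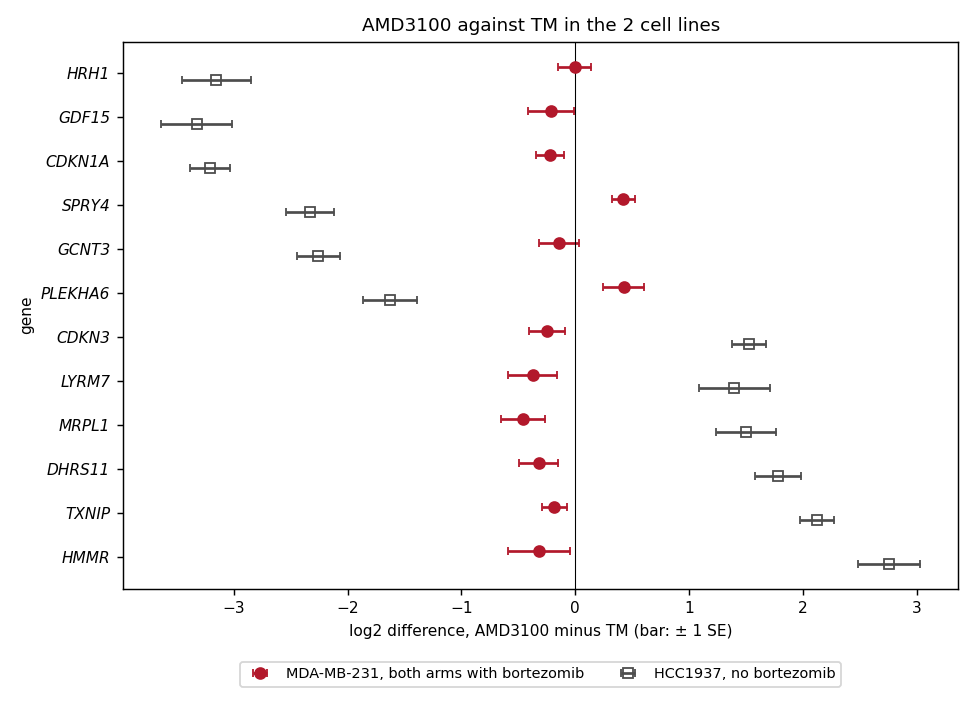
The log2 difference of AMD3100 minus TM (± 1 SE) is plotted for the 12 genes of at least 5 CPM in both lines with the largest called differences between the lines, in MDA-MB-231 with bortezomib (red circles) and in HCC1937 without it (open squares). The MDA-MB-231 values lie between -0.46 and 0.43, and the HCC1937 values between -3.33 and 2.76.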

How the data were processed

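The values used were raw counts per gene, which the authors deposited, for the MDA-MB-231 libraries and, for 1 comparison, the HCC1937 libraries. Per the submitters' processing notes, reads were counted with featureCounts 2.0.1 on GRCh38 and summarised with MultiQC 1.11. Per the labels, RNA from Trizol was selected for poly(A) and sequenced as paired reads. The sources used here name no aligner and no annotation release. Of counts between 1 and 20, 58.9% to 62.8% were even in the treated libraries, so both mates of many fragments may have been counted, and counting errors are wider than the counts alone give. The mouse 4T1 libraries were not used.

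Genes were filtered by edgeR 4.0.16 (filterByExpr, 16498 of 78932 features kept), scaled by TMM and tested by its quasi-likelihood test with Benjamini-Hochberg adjustment at 0.05, with the 9 MDA-MB-231 libraries in 1 fit. CPM are TMM-scaled. DESeq2 1.42.0 and limma 3.58.1 were alternatives. GC content and length came from the longest GENCODE v29 transcript (93.2% of tested genes), and each library's lowess trend (span 0.3) against them entered as an offset. Distances used log2 CPM with a prior count of 2. Intervals are 95% intervals of the fit. The fit was tested on simulated data.

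Genes were named by rule, from those of 5 CPM or more except for the lists and pathway genes: the 6 with the smallest p in each direction without overlap, since none was called; the 12 with the largest SD over the treated libraries; the 6 largest called changes without overlap in each direction without replicate 3 of both arms; from each list described, its most abundant members, as no member was called between the arms; 16 genes of the CXCR4, proteasome, copper, immune and stress pathways; the 6 largest interactions in each direction; and the 5 largest shared changes from vehicle in each direction. FN1, THBS1, COL12A1, COX7C, MKI67 and LOX were chosen after their values were seen. The comparison, the gene lists and the members were chosen with earlier results of these data known. For the shared changes the 5 CPM minimum was not part of the written rule. Trend removal was added after seeing the data.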

Additional observations from a re-analysis of the deposited data

Results flagged for a closer look

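For 12 genes, the difference between AMD3100 and TM differed between MDA-MB-231 (both arms with bortezomib) and HCC1937 (no bortezomib) by the interaction term of the edgeR fit over both lines. They were the 6 largest in each direction at 5 CPM or more. On the log2 scale, MDA-MB-231 minus HCC1937, the values were 2.94 for CDKN1A, 3.06 for GDF15, 3.10 for the histamine receptor gene HRH1, 2.71 for SPRY4, 2.07 for the mucin glycosyltransferase gene GCNT3 and 2.00 for PLEKHA6. In the other direction they were -3.12 for the mitotic gene HMMR, -2.35 for TXNIP, -2.15 for DHRS11, -2.01 for the mitochondrial ribosomal protein gene MRPL1, -1.83 for LYRM7 and -1.82 for the phosphatase gene CDKN3. The adjusted p was largest for LYRM7, at 0.033, and in HCC1937 LYRM7 stood at 57.4, 21.4 and 18.9 CPM with AMD3100 and 12.9, 11.9 and 12.2 CPM with TM, so its first AMD3100 library stood far above the other libraries. Without that library the interaction of LYRM7 was -1.13 (adjusted p = 0.0094) and that of HMMR -2.75.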

How the results depend on the processing

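Between the arms, the count of 0 called genes held under median-of-ratios scaling, limma-voom, the arms fitted alone, an adjusted p of 0.01, a 2-fold limit, the length trend removed, and GC and length trends removed. It was 52 with DESeq2, 177 without a filter on low counts, 130 with the GC trend removed (93 higher, 37 lower), and 1614, 2617 and 1920 without replicate 3 of both arms, as counted, with the GC trend removed and with GC and length trends removed. Leaving out single libraries gave 0 to 183, and 0 to 1187 with GC and length trends removed, where 1187 was the fit without TM replicate 3 and the fit without TM replicate 1 gave 2. The cause of these shifts was not tested. Against vehicle, a 2-fold limit gave 3879 genes for the AMD3100 arm and 4650 for the TM arm.

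Replicate numbers did not pair the libraries of the 2 arms: same-numbered AMD3100 and TM libraries had deviations correlated at -0.609, -0.421 and -0.837 over 7961 genes. With same-numbered vehicle libraries the signs were mixed. The correlations were 0.307, -0.658 and -0.785 for the AMD3100 arm and -0.493, 0.469 and 0.765 for the TM arm. With the replicate number as a block the counts were 0 between the arms, 6833 and 7725 against vehicle and 241 between the lines, and 0 between the arms with the block and GC trend removal together.

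The count of 625 between the lines was 1552 with DESeq2, 2317 with the GC trend and 2194 with GC and length trends removed, 163 with the compared groups alone, 1018 without replicate 3 of both arms, 183 at an adjusted p of 0.01, 377 at 2-fold, and 268 to 1866 on leaving out single libraries. Of the replicates 3, 2 lay nearer the other arm on 500 and on 2000 variable genes, on all genes tested and under median-of-ratios scaling. On genes above 3 log2 CPM, 1 did so under each of the 3 treatments of GC and length. Of 38 gene lists, 14 had a positive median with all libraries and 7 without replicate 3 of both arms. PDIA3 (0.02 between the arms) turned to -0.29 without the replicates 3 with the GC trend removed, and to -0.29 with length removed too. Depth limits genes under 3 log2 CPM, where most intervals wider than 2-fold lie.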
